A study of Arabidopsis thaliana with 24 samples.

Results

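The SAUR (small auxin up RNA) and Aux/IAA genes of Arabidopsis thaliana were followed over 1 day in rosettes of 2 lines. They were taken as the genes of the deposited table whose name is SAUR or IAA with a number, or whose description contains "SAUR" or "auxin-responsive protein". This gave 72 of 24503 genes, 44 SAUR genes and 28 Aux/IAA genes. Name and description both matched for 47 of them, the name alone for 6 and the description alone for 19. The 19 had no name in the table, and their SAUR numbers come from the RefSeq annotation, in which all 72 loci were found. SHY2 (IAA3) is in the table under a name that the rule does not match.

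The mutant was jaz4-1, a T-DNA line in the Col-0 background that the submitters describe as a knockout of JAZ4, a repressor of jasmonate responses. It was compared with the wild type Col-0, and JAZ4 loss is represented by this 1 insertion line. Plants grew on soil under 12 h of light, and 3-week-old rosettes were harvested at dawn (ZT0), midday (ZT6), dusk (ZT12) and midnight (ZT18). The 8 groups, jaz4-1 and Col-0 at those 4 times, hold 3 libraries apiece, and 1 library stands for 6 pooled rosettes.

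Auxin acts by bringing Aux/IAA proteins to the TIR1/AFB receptors, after which the Aux/IAA proteins are degraded. Aux/IAA proteins repress the auxin response factors (ARFs), so their loss frees transcription of auxin-responsive genes, which include many SAUR and Aux/IAA genes themselves. SAUR proteins of the SAUR19 group inhibit PP2C.D phosphatases, which keeps plasma membrane proton pumps active and favours cell expansion. In seedlings, growth and auxin-responsive transcripts are known to be gated by the circadian clock and by the PIF transcription factors.

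The 24 libraries held 16832226 to 22644745 reads (median 20068902), with 18959 to 21863 genes detected. The lowest numbers belonged to replicate 2 of jaz4-1 at ZT6 (19151) and replicate 2 of Col-0 at ZT0 (18959). JAZ4 had 31 reads over the 12 jaz4-1 libraries, with 0 to 8 per library, and 93 reads over the 12 Col-0 libraries, with 0 to 23 per library. All 6 rosette leaf markers were detected, with summed levels of 27700 to 65100 CPM (reads relative to the library total) in jaz4-1 and 30100 to 69100 CPM in Col-0. The 5 flower markers summed to 0.481 to 1.55 CPM in jaz4-1 and 0 to 1.76 CPM in Col-0. Of 5 root markers, only 2 were in the deposited table, and these summed to 49.8 to 448 CPM in jaz4-1 and 50.2 to 316 CPM in Col-0.

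Several of the genes are near-copies of one another, which bears on every value given for them. SAUR19 to SAUR24 lie together on chromosome 5, at chr5:5962773-5984308 of TAIR10.1, and their coding sequences are 87.7% to 95.2% identical. Their first 60 coding bases, read from the RefSeq TAIR10.1 genome in the direction of the gene, are shown because they let a reader see how little separates the copies. Capitals mark the 12 positions at which the 6 genes are not all alike.
SAUR19: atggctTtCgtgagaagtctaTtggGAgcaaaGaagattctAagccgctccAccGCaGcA
SAUR20: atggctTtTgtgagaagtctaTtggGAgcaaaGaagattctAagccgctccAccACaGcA
SAUR21: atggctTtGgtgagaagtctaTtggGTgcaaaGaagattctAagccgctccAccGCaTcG
SAUR22: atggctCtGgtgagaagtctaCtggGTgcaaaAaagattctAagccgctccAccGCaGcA
SAUR23: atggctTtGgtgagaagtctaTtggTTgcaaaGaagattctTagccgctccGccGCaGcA
SAUR24: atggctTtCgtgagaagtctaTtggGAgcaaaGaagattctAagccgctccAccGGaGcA
SAUR62 and SAUR75 were 97% identical although they lie on chromosomes 1 and 5, and the 9 genes SAUR61 to SAUR68 and SAUR75 ranged between 45.6% and 97%. Within that group SAUR63 and SAUR67 were 89.4% identical, and SAUR64 and SAUR66 were 85.0% identical. The sources used here do not say how reads that match several copies were counted. The split of reads among SAUR19 to SAUR24, and within each of these pairs and between SAUR62 and SAUR75, is therefore uncertain. The annotation also places 12 of the 72 genes over another gene, among them SAUR63, SAUR64, SAUR6, IAA9, IAA13, IAA27 and IAA32. Whether the libraries kept strand is not given, so reads of the overlapping genes cannot be told apart.

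The 300 bases before the annotated transcription start were searched on both strands for TGTCTC and TGTCGG, letters of auxin response elements, for the G-box CACGTG and for the evening element AAAATATCT. TGTCTC was found upstream of 10 of 28 Aux/IAA genes (35.7%) and 6 of 44 SAUR genes (13.6%), against 12.9% of the 22710 nuclear protein-coding genes of the table. TGTCGG was found in 21.4% of the Aux/IAA and 4.55% of the SAUR windows, against 5.25% of all genes. The G-box was found in 14.3% of the Aux/IAA and 0% of the SAUR windows, against 7.78% of all genes. The evening element was in none of the 72 windows and in 2.88% of all genes. TGTCTC and TGTCGG cannot share a TGTC on the same strand, and these matches are a description of the letters only.

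Upstream sequences of 4 genes described below are printed, 3 with their highest level at dawn and 1 with its highest level at ZT6, with the auxin response element TGTCTC or its reverse complement in capitals. They are from the RefSeq TAIR10.1 genome, 5′ to 3′ towards the gene, and end at the base before the annotated start. SAUR62 is at chr1:10303419-10303718 on the minus strand, SAUR67 at chr1:10322123-10322422 on the plus strand, SAUR15 at chr4:18125757-18126056 on the plus strand and IAA6 at chr1:19673653-19673952 on the minus strand.
SAUR62: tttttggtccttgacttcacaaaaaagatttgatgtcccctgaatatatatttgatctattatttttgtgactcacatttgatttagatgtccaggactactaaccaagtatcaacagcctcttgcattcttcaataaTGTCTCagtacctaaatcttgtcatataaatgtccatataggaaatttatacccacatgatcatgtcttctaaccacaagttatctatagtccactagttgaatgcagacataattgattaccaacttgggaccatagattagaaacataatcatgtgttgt
SAUR67: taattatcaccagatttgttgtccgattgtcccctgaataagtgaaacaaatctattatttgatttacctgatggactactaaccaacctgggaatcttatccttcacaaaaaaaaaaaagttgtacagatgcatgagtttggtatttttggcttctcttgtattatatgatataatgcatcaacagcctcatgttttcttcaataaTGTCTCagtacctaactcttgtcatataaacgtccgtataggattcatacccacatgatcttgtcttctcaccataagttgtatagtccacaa
SAUR15: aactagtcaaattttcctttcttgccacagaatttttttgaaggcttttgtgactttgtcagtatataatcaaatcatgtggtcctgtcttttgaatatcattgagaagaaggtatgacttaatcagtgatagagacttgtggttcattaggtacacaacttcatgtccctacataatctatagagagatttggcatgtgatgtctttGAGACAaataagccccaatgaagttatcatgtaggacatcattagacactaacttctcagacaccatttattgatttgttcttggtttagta
IAA6: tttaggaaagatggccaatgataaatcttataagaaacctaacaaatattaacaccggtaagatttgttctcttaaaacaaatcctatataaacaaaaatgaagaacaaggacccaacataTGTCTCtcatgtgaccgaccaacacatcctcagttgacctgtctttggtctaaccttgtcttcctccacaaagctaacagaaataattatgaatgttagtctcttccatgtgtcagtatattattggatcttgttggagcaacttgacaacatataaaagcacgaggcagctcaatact
SAUR62 and SAUR67 share a run of 26 bases around the element, which begins 173 bases before the start of SAUR62 and 104 bases before that of SAUR67.
shared run: ttcttcaataaTGTCTCagtacctaa

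Of the 72 genes, 56 had enough reads for testing, 32 SAUR and 24 Aux/IAA genes. The 16 others had 2 to 94 reads over all 24 libraries and a mean of at most 3.66 normalised reads. They were SAUR2, SAUR10, SAUR17, SAUR40, SAUR45, SAUR56, SAUR57, SAUR58, SAUR61, SAUR68, SAUR70 and SAUR75, with IAA15, IAA31, IAA33 and IAA34. Levels over time are given as normalised reads, the reads of a gene after scaling over all 24 libraries. Per kilobase of exon, IAA8 had the highest mean level of the tested genes, with 1854 normalised reads per kb, followed by IAA9 (1269) and IAA7 (1258). SAUR78 was the most abundant SAUR gene per length, with 1146 normalised reads per kb, followed by SAUR6 (768) and SAUR50 (658). The median was 158 normalised reads per kb for the tested Aux/IAA genes and 69.9 for the tested SAUR genes.

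The first question was how the genes moved over the day in each line. Most of them changed, and the common pattern was a peak at dawn. A gene is called when its adjusted p was under 0.05 in limma, with Benjamini-Hochberg adjustment over all 19614 genes tested. Over the 4 times, 39 of 56 genes were called in jaz4-1, where 53.5% of all genes tested were called, and 37 of 56 in Col-0, where 49.1% of all genes tested were called. The 2 lines shared 31 of these genes, which is 79.5% of the jaz4-1 calls and 83.8% of the Col-0 calls. In all, 45 genes were called in at least 1 line, 25 SAUR and 20 Aux/IAA genes. The 11 called in neither line were SAUR5, SAUR23, SAUR36, SAUR49, SAUR52, SAUR76, SAUR77, IAA5, IAA10, IAA20 and IAA30.

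Among the genes called over time in jaz4-1, 28 of 39 (71.8%) had their highest mean at ZT0, against 38.3% of all called genes. In Col-0 it was 21 of 37 (56.8%), against 38.4% of all called genes. Split by family, the dawn peak held for 17 of 21 SAUR and 11 of 18 Aux/IAA genes in jaz4-1, and for 14 of 20 SAUR and 7 of 17 Aux/IAA genes in Col-0. ZT6 was the peak of 3 called genes in jaz4-1 and of 11 in Col-0. Of the 31 genes called in both lines, 22 (71.0%) peaked at the same time in both, against 79.1% of all genes called in both. The other 9 were SAUR19, SAUR21, SAUR22, SAUR32, SAUR71, IAA11, IAA14, IAA17 and IAA32. Whether the peak time of a gene differed between the lines was not tested apart from the test of line by time given below. Rosette leaf markers also varied over the day, with summed levels of 60000 to 65100 CPM at ZT0 and 27700 to 34300 CPM at ZT12 in jaz4-1. In Col-0 they were 58300 to 69100 CPM at ZT0 and 30100 to 31500 CPM at ZT12. The 2 root markers summed to 49.8 to 150 CPM at ZT0, 55.9 to 105 at ZT6, 154 to 448 at ZT12 and 51.7 to 184 at ZT18 in jaz4-1. Their Col-0 sums were 94.3 to 170 CPM at ZT0, 178 to 259 at ZT6, 210 to 316 at ZT12 and 50.2 to 193 at ZT18. The part of cell composition in the changes over time was not tested, and in bulk tissue fewer cells of a type and less RNA per cell cannot be told apart.

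**Figure D1:**
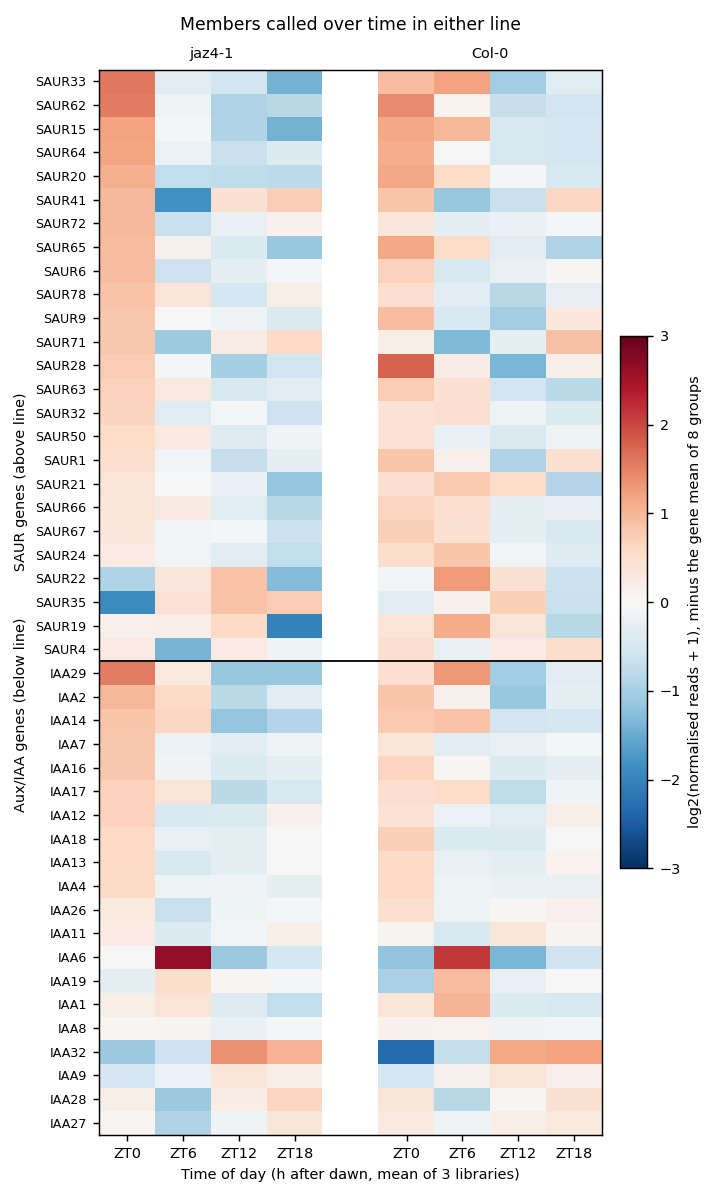
Mean level of the 45 genes called over time in at least 1 line, at each time in jaz4-1 (left) and Col-0 (right). Colour gives log2(normalised reads + 1) minus the gene's mean over the 8 groups, red above and blue below it. Most SAUR rows are reddest at ZT0 in both lines. The upper Aux/IAA rows are reddest at ZT0 in jaz4-1, but among them IAA14 and IAA17 peak at ZT6 and IAA11 at ZT12 in Col-0. IAA6 is reddest at ZT6.

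Between midnight and dawn most of the called genes rose. At ZT0 against ZT18, 29 of 56 genes were called in jaz4-1, 26 higher and 3 lower, where 26.9% of all genes were called, 14.1% higher and 12.8% lower. In Col-0, 25 were called, 22 higher and 3 lower, where 22.7% of all genes were called, 11.7% higher and 11% lower. The median log2 fold change of the 56 genes was 0.63 in jaz4-1 and 0.63 in Col-0, and that of all genes was -0.04 in jaz4-1 and -0.05 in Col-0. The lines shared 22 calls in the same direction, 75.9% of those in jaz4-1 and 88.0% of those in Col-0, with 20 higher and 2 lower. By family, 15 SAUR and 11 Aux/IAA genes rose in jaz4-1, and 14 SAUR and 8 Aux/IAA genes rose in Col-0. Single libraries carried weight here. In jaz4-1 at ZT0 replicate 3 the 72 genes took 0.148% of all reads, the largest share of any library, and without it 20 genes were called in jaz4-1. In Col-0 the count lay between 17 and 26 when each library was left out.

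The SAUR63 group, whose founding member promotes elongation of hypocotyls and stamen filaments, was among the clearest. All 6 of its tested genes, SAUR62 to SAUR67, were called over time in Col-0 and 5 of them in jaz4-1, and the same numbers were higher at ZT0 than at ZT18. Of all genes, 49.1% were called over time in Col-0 and 53.5% in jaz4-1. At ZT0 against ZT18, 11.7% of all genes were called higher in Col-0 and 14.1% in jaz4-1. SAUR62 (AT1G29430) in jaz4-1 had 304, 330.4 and 541 normalised reads at dawn, 149.7, 98.65 and 122 at midday, 61.2, 91.7 and 53.6 at dusk and 80.6, 54.5 and 87.4 at midnight. In Col-0 it had 293, 455 and 325 at dawn, 170.3, 133 and 123.5 at midday, 81.6, 88.2 and 74.9 at dusk and 119, 76.8 and 75.02 at midnight. In both lines every ZT0 library lay above every library of the other times. The log2 fold change from ZT18 to dawn was 2.37 ± 0.27 in jaz4-1 (SE; limma adjusted p 4.75e-07) and 1.98 ± 0.27 in Col-0 (6.91e-06), and SAUR62 fell by 1.63 by ZT6 in jaz4-1 and fell by 1.31 in Col-0. SAUR65 rose by 1.98 ± 0.44 in jaz4-1 (adjusted p 0.00154) and 2.17 ± 0.44 in Col-0 (0.000769) between ZT18 and ZT0. SAUR64 rose by 1.57 ± 0.30 in jaz4-1 and 1.64 ± 0.30 in Col-0, and it shares an overlapping annotated gene with SAUR63. The split of reads among the close copies of this group is uncertain, so its genes are not fully separate measures.

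SAUR67 (AT1G29510), whose upstream sequence stands above beside that of SAUR62, is of the same group. It had 109, 119 and 179.6 normalised reads at ZT0 in jaz4-1 and 62.7, 65.8 and 77.85 at ZT18. The Col-0 libraries held 185, 181 and 165 at ZT0 and 82.5, 59.5 and 92.9 at ZT18. The groups at dawn and ZT18 did not overlap in either line. The log2 fold change at ZT0 against ZT18 was 0.95 ± 0.27 in jaz4-1 (adjusted p 0.0113) and 1.19 ± 0.27 in Col-0 (0.00230). The jaz4-1 call ended without ZT0 replicate 3 (adjusted p 0.0830).

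SAUR15 (AT4G38850), one of the first auxin-induced genes described in Arabidopsis, was highest around dawn and lowest at night. In jaz4-1 it had 43.6, 61.1 and 125 normalised reads at dawn, 25.6, 35.6 and 33.7 at midday, 17.6, 16.8 and 16.7 at dusk and 17.02, 9.39 and 8.53 at midnight. Values in Col-0 were 85.6, 84.1 and 53.7 at dawn, 84.6, 71.2 and 41.96 at midday, 35.2, 20.05 and 14.4 at dusk and 29.6, 18.1 and 20.5 at midnight. At ZT6 the 3 jaz4-1 libraries lay below all 3 Col-0 libraries, with a line difference of -1.005 ± 0.41 that was not called (adjusted p 0.177). At ZT0 against ZT18, SAUR15 rose by 2.54 ± 0.41 in jaz4-1 (adjusted p 6.36e-05) and 1.67 ± 0.41 in Col-0 (0.00474).

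In the SAUR19 group, 4 of 6 genes rose between ZT18 and ZT0 in jaz4-1 (SAUR19, SAUR20, SAUR21 and SAUR24) and 3 of 6 in Col-0 (SAUR20, SAUR21 and SAUR24). Of all genes, 14.1% were called higher in this step in jaz4-1 and 11.7% in Col-0. SAUR20 had 66.1, 5.48 and 25.05 normalised reads at ZT6 in jaz4-1 and 93.8, 97.4 and 156 at ZT0. Its Col-0 libraries held 110.2, 69.3 and 62.1 at ZT6 and 77.35, 175 and 117 at ZT0. The 5.48 came from jaz4-1 at ZT6 replicate 2, a library with few detected genes, and the ZT6 groups of the lines overlapped. From ZT0 to ZT6 SAUR20 fell by 2.34 in jaz4-1 (adjusted p 0.000811), and the difference in Col-0 was -0.57 ± 0.51 (0.397). Before dawn, the SAUR19 rise in jaz4-1 was lost without ZT0 replicate 3 or ZT18 replicate 3 (highest adjusted p 0.0812), and the SAUR21 rise in Col-0 without ZT18 replicate 2 (0.0554). The rise of SAUR20 was no longer called in jaz4-1 without ZT0 replicate 3 (0.0556), and in Col-0 without ZT0 replicate 2 or 3 or ZT18 replicate 2 or 3 (highest adjusted p 0.144). SAUR22 was high later in the day, with 4.36, 2.865 and 12.65 normalised reads at dawn, 13.5, 26.03 and 11.6 at midday, 15.9, 31.97 and 27.2 at dusk and 5.37, 4.70 and 4.27 at midnight in jaz4-1. Its dusk and midnight libraries did not overlap there. SAUR19 and SAUR22 fell by 2.67 and 2.12 between ZT12 and ZT18 in jaz4-1 (adjusted p 0.00378 and 0.00845), and SAUR21 fell by 1.42 in Col-0 (0.0128). The SAUR21 call ended without Col-0 ZT12 replicate 3 or ZT18 replicate 2 (highest adjusted p 0.0724). Because the 6 genes are near-copies, values of the single genes are less certain than those of SAUR genes without such close copies.

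Among the Aux/IAA repressors, those that rose between ZT18 and ZT0 in both lines were IAA1, IAA2, IAA4, IAA13, IAA14, IAA16, IAA17 and IAA18. The IAA1 call in Col-0 ended without ZT0 replicate 1 or ZT18 replicate 1 or 3 (highest adjusted p 0.104), and in both lines with only the libraries compared. IAA16 (AT3G04730) in jaz4-1 had 3478, 3013 and 4539 normalised reads at dawn, 2096, 1872 and 1883 at midday, 1457, 1636 and 1692 at dusk and 1754, 1800 and 1706 at midnight. In Col-0 it had 3583, 2868 and 3442 at dawn, 2273, 2165 and 2071 at midday, 1572, 1505 and 1724 at dusk and 1722, 1808 and 1699 at midnight. Its dawn libraries lay above all others in both lines, and the ZT0 to ZT18 difference was 1.05 ± 0.12 in jaz4-1 (adjusted p 9.99e-07) and 0.91 ± 0.12 in Col-0 (7.74e-06). IAA4 gave 0.87 ± 0.11 in jaz4-1 and 0.82 ± 0.11 in Col-0, and IAA2 gave 1.25 ± 0.21 in jaz4-1 and 1.13 ± 0.21 in Col-0.

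IAA14 (SOLITARY-ROOT, a repressor of lateral root initiation) and IAA17 (AXR3, known from auxin-resistant gain-of-function mutants) stayed high until ZT6 and fell in the afternoon. IAA14 in jaz4-1 had 401, 332 and 393 normalised reads at dawn, 387, 293 and 286 at midday, 102, 92.55 and 86.1 at dusk and 94.9, 124 and 119 at midnight. Col-0 plants gave 399.6, 207 and 482 at dawn, 393, 416 and 326 at midday, 144, 124 and 155.5 at dusk and 137, 180.3 and 126 at midnight. All ZT6 libraries lay above all ZT12 libraries in each line. Between ZT6 and ZT12 IAA14 fell by 1.76 in jaz4-1 (adjusted p 4.84e-06) and fell by 1.41 in Col-0 (0.000115). IAA17 fell by 1.22 in jaz4-1 (2.11e-06) and fell by 1.29 in Col-0 (1.24e-06) over the same step, and IAA2 fell by 1.41 in jaz4-1 and fell by 1.26 in Col-0.

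**Figure D2:**
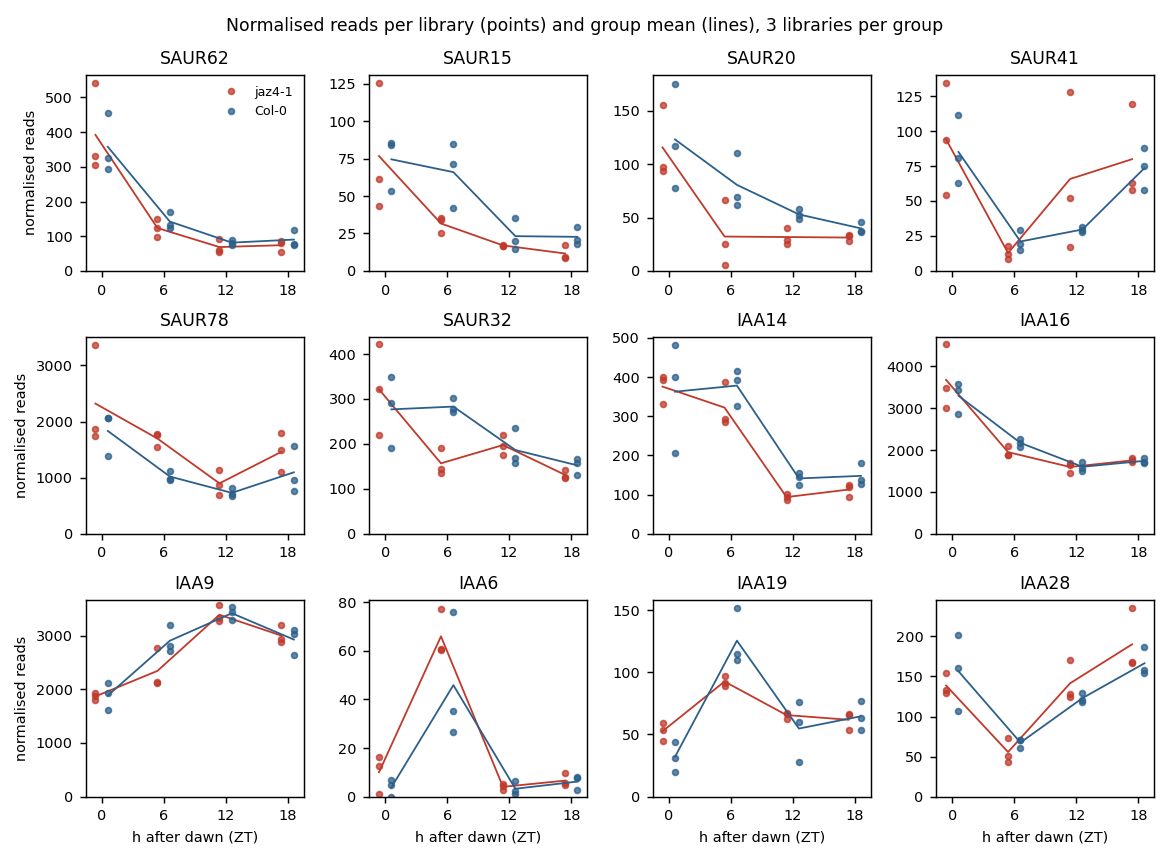
Normalised reads of 12 genes in every library by hours after dawn. Points are libraries (3 per group), lines join group means, and jaz4-1 (red) is drawn just left of Col-0 (blue). SAUR62, SAUR15 and IAA16 are highest at dawn, IAA6 is highest at ZT6, IAA9 is lowest at dawn and SAUR41 and IAA28 are lowest at ZT6.

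In the morning most of the called genes fell. At ZT6 against ZT0, 26 of 56 genes were called in jaz4-1, 5 higher and 21 lower, where 42.5% of all genes were called, 21.1% higher and 21.4% lower. In Col-0, 20 were called, 4 higher and 16 lower, where 40.2% of all genes were called, 20.5% higher and 19.7% lower. The share called was near that of all genes, while most of the called members were lower. The lines shared 16 of these calls, 61.5% of those in jaz4-1 and 80.0% of those in Col-0, with 3 higher and 13 lower. The ZT0 libraries serve both this step and the one before dawn, so the fall and the rise are not independent of each other.

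SAUR41, SAUR71 and IAA28 formed a second pattern, with a trough at ZT6 and recovery by night. SAUR41 (AT1G16510) in jaz4-1 had 134, 93.6 and 54.4 normalised reads at dawn, 17.5, 12.3 and 8.67 at midday, 16.8, 52.2 and 128 at dusk and 119, 62.9 and 57.6 at midnight. In the wild type it had 81.0, 62.7 and 111 at dawn, 18.9, 15.2 and 29.05 at midday, 29.2, 28.1 and 31.7 at dusk and 87.9, 57.8 and 75.02 at midnight. Its ZT6 libraries lay below all ZT0 and ZT18 libraries in both lines, and its ZT12 libraries in jaz4-1 were far apart. SAUR41 fell by 2.74 between ZT0 and ZT6 in jaz4-1 (adjusted p 0.000138) and fell by 1.97 in Col-0 (0.00331). SAUR71 fell by 1.83 in jaz4-1 (0.000139) and fell by 1.46 in Col-0 (0.00147). IAA28 (AT5G25890), a repressor of lateral root formation, fell by 1.33 in jaz4-1 (5.88e-05) and fell by 1.16 in Col-0 (0.000306). It then rose by 1.35 ± 0.23 to ZT12 in jaz4-1 (0.000127) and 0.86 ± 0.23 in Col-0 (0.0129), the Col-0 call ending without ZT6 replicate 1 or ZT12 replicate 3 (highest adjusted p 0.0640). SAUR72, the closest relative of SAUR71 among the genes, fell by 1.66 in jaz4-1 (0.000524) and was not called in this step in Col-0.

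IAA12 (BODENLOS, known from embryo patterning) and IAA18 also fell from dawn to ZT6. IAA12 had 364, 251 and 419 normalised reads at ZT6 and 718, 693 and 885 at ZT0 in jaz4-1, a fall by 1.17 on the log2 scale (adjusted p 9.99e-06). The Col-0 libraries held 473, 357 and 428.5 at ZT6 and 740.4, 517 and 683 at ZT0, and it fell by 0.62 (0.00644). Libraries of the 2 times did not overlap in either line. IAA18 fell by 0.83 in jaz4-1 (5.73e-06) and fell by 1.14 in Col-0 (7.81e-08).

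A small group of Aux/IAA genes ran against the dawn pattern and rose to ZT6. IAA6 (AT1G52830, also SHY1), named here after its values were seen because its mean level is low, in jaz4-1 had 16.4, 0.95 and 12.65 normalised reads at dawn, 60.7, 60.3 and 77.1 at midday, 4.19, 2.52 and 5.27 at dusk and 5.37, 4.70 and 9.60 at midnight. Values in Col-0 were 4.60, 0 and 6.71 at dawn, 26.7, 35.1 and 75.85 at midday, 2.25, 6.42 and 0.96 at dusk and 2.69, 7.765 and 8.04 at midnight. Every ZT6 library lay above every other library of its line. IAA6 rose by 3.11 ± 0.80 in jaz4-1 (adjusted p 0.00308) and 3.6 ± 0.80 in Col-0 (0.000970) between ZT0 and ZT6, and fell by 3.78 in jaz4-1 and fell by 3.56 in Col-0 between ZT6 and ZT12. IAA19 (MSG2, which acts in hypocotyl tropic bending), its closest relative among the genes at 69.3% coding identity, had 89.0, 91.8 and 97.3 normalised reads at ZT6 and 53.4, 44.9 and 59.4 at ZT0 in jaz4-1. In Col-0 it had 110.2, 115 and 152 at ZT6 and 44.2, 31.4 and 20.1 at ZT0. Its rise was 0.81 ± 0.31 in jaz4-1 (adjusted p 0.0380) and 2.00 ± 0.31 in Col-0 (2.27e-05). The jaz4-1 call for IAA19 ended when any of 5 libraries was left out, jaz4-1 ZT0 replicate 1 or 2 or any jaz4-1 ZT6 replicate, with a highest adjusted p of 0.113, or when both libraries with the fewest detected genes were.

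IAA9 (AT5G65670), one of the most abundant repressors, was the inverse of the dawn-peaking genes. In jaz4-1 it had 1929, 1875 and 1795 normalised reads at dawn, 2140, 2124 and 2759 at midday, 3331, 3268 and 3562 at dusk and 2871, 3191 and 2930 at midnight. Col-0 plants gave 1925, 2114 and 1607 at dawn, 2706, 2813 and 3188 at midday, 3441, 3281 and 3526 at dusk and 2639, 3025 and 3112 at midnight. The dawn libraries were the lowest of both lines. At ZT0 against ZT18 it fell by 0.68 in jaz4-1 (adjusted p 0.000138) and fell by 0.64 in Col-0 (0.000324). An annotated gene overlaps IAA9, and the part of its reads was not tested. IAA32, one of 6 listed Aux/IAA proteins without the degron that the receptors bind, was the other gene lower at ZT0 than at ZT18 in both lines. It had 0, 4.77 and 1.265 normalised reads at ZT0 and 8.06, 15.03 and 13.9 at ZT18 in jaz4-1, and 0.92, 0 and 0 at ZT0 and 9.86, 6.90 and 25.01 at ZT18 in Col-0. IAA32 fell by 2.46 in jaz4-1 (adjusted p 0.0444) and fell by 3.39 in Col-0 (0.00746). The jaz4-1 call ended in edgeR and DESeq2, with a pseudocount of 0.5, with a replicate block and without any of 8 libraries, with a highest adjusted p of 0.183: Col-0 ZT6 replicate 2, jaz4-1 ZT0 replicates 1 and 3, jaz4-1 ZT12 replicates 1 and 2, and each jaz4-1 ZT18 replicate. Of the other 5 such genes, IAA20 and IAA30 were not called over time in either line, and IAA31, IAA33 and IAA34 were too low to test.

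The afternoon and early night moved fewer genes. At ZT12 against ZT6, 15 of 56 were called in jaz4-1, 6 higher and 9 lower, where 19% of all genes were called, 8.26% higher and 10.7% lower. In Col-0, 14 were called, 3 higher and 11 lower, where 11.7% of all genes were called, 4.67% higher and 7% lower. The 7 calls shared in that step were IAA1, IAA2, IAA6, IAA14 and IAA17, lower, with IAA28 and SAUR71, higher, or 46.7% of the jaz4-1 and 50% of the Col-0 calls. The SAUR71 call in Col-0 was at the threshold (adjusted p 0.0481) and ended with a pseudocount of 5, with no filter and without any of 16 libraries (highest adjusted p 0.221), and in jaz4-1 it ended without ZT12 replicate 3 (0.0755). The IAA1 call in jaz4-1 ended without ZT6 replicate 1 or 2 or ZT12 replicate 1 or 2 (highest adjusted p 0.152). The Col-0 count was 7 without ZT6 replicate 1, 9 without ZT6 replicate 2 and 6 without ZT12 replicate 3. At ZT18 against ZT12, 4 genes were called in jaz4-1, IAA12 and SAUR49 higher and SAUR19 and SAUR22 lower, where 13.1% of all genes were called, 6.79% higher and 6.28% lower. The IAA12 call there ended without ZT12 replicate 2 or 3 or any ZT18 replicate (highest adjusted p 0.129). That of SAUR49 ended with no filter and without any ZT12 replicate or ZT18 replicate 1 or 3 (0.21). In Col-0, 9 were called, 8 higher and 1 lower, where 15.4% of all genes were called, 8.86% higher and 6.57% lower. Of these, SAUR1 rose by 1.37 ± 0.28 (adjusted p 0.00137), IAA2 by 0.86 ± 0.21 (0.00584) and IAA17 by 0.63 ± 0.15 (0.00530), the IAA2 call ending without ZT18 replicate 1 (0.0581). The jaz4-1 count was 2 without ZT12 replicate 2 or ZT18 replicate 3, and the Col-0 count was 5 without ZT12 replicate 2, 4 without ZT12 replicate 3 and 3 without ZT18 replicate 1.

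**Figure D3:**
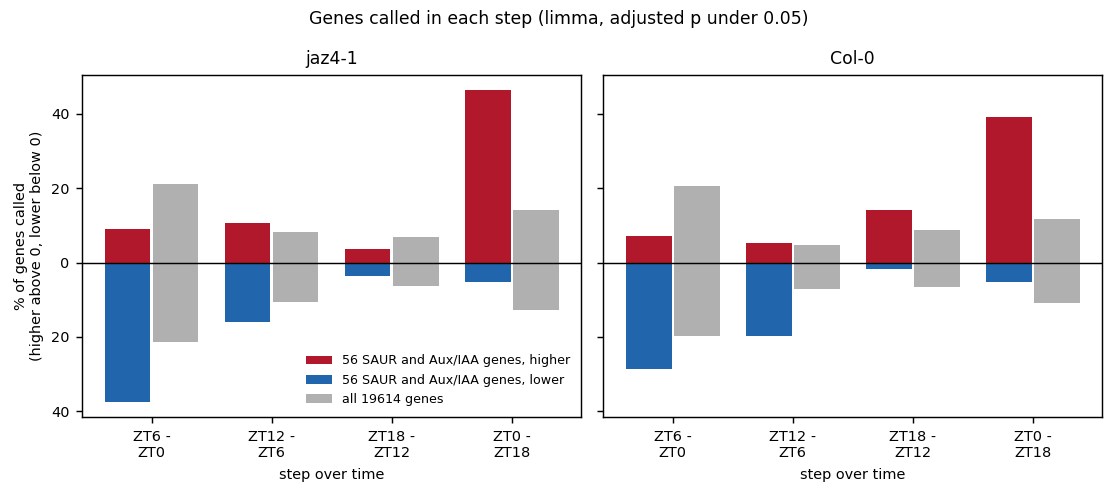
Share of genes called higher (above 0) and lower (below 0) in each step over time, in jaz4-1 (left panel) and Col-0 (right panel). Coloured bars are the 56 tested SAUR and Aux/IAA genes and grey bars all 19614 genes tested. The step from ZT18 to ZT0 has 26 genes higher in jaz4-1 and 22 in Col-0, and the step from ZT0 to ZT6 has 21 lower in jaz4-1 and 16 in Col-0.

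The second question was whether the mutation shifted these genes. SAUR32, lower in jaz4-1 at ZT6, was the 1 gene whose difference passed the main limma test, which had no replicate block, at any time. At ZT6, 1 of 56 genes was called, SAUR32, where 2.95% of all genes were called and 0.76% were lower. No gene was called at ZT0, ZT12 or ZT18 by limma, edgeR or DESeq2, where limma called 0.923%, 0.321% and 0.138% of all genes, and the unadjusted p was under 0.05 for 2, 2 and 5 genes. On average over the 4 times limma and edgeR called 0 genes and DESeq2 called SAUR78, with 14 genes at an unadjusted p under 0.05 and 4.68% of all genes called by limma. The line difference depended on time for 0 genes by limma, edgeR and DESeq2, with 3 genes at an unadjusted p under 0.05 and 0.194% of all genes called by limma. Shares of all genes at an unadjusted p under 0.05 are not given here, so the unadjusted counts are not set against all genes.

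SAUR32 (AT2G46690), known for a role in the apical hook of seedlings, was lower in jaz4-1 at ZT6. On the scale of the deposited values it had 173, 125 and 134 reads in jaz4-1 and 279.9, 259 and 251 in Col-0, and the lines did not overlap. The log2 fold change was -0.88 ± 0.23 (limma adjusted p 0.0359). The call ended when any single Col-0 library of ZT6 was left out (adjusted p 0.0848 to 0.137), without jaz4-1 ZT6 replicate 2 (0.172) and without jaz4-1 ZT6 replicate 3 (0.0567), where the log2 fold change lay between -0.91 and -0.78. Without both libraries that had the fewest detected genes it was -0.78 (0.099). The count of called genes was 3 without jaz4-1 ZT6 replicate 1 or 3, and 2 without Col-0 ZT0 replicate 1 or 2, Col-0 ZT18 replicate 1 or jaz4-1 ZT0 replicate 3. At the other times the lines overlapped in SAUR32. In the authors' deposited table, whose test differs, 3 of 51 genes had an adjusted p under 0.05 at ZT6, SAUR32, SAUR78 and IAA27, where 6.90% of all genes did.

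Beyond SAUR32, differences at ZT6 leaned to lower values in jaz4-1. At midday the 72 genes together took between 0.0823% and 0.0946% of a jaz4-1 library, against between 0.0997% and 0.115% of a Col-0 library. These are shares of the library total, which is not the scale of the line tests and also depends on the other genes. They do not measure the size of the line difference. The log2 fold change was negative for 44 of the 56 genes, with a median of -0.43 for SAUR genes, -0.21 for Aux/IAA genes and -0.04 for all genes tested. The median of the 56 genes was -0.31, and -0.30 without both libraries with the fewest detected genes. At ZT6 16 genes had an unadjusted p under 0.05, 13 lower and 3 higher in jaz4-1. The share of all genes at that threshold is not given here, so this count is not set against all genes. SAUR20 was at -1.825 ± 0.51 (adjusted p 0.0525), SAUR24 at -0.96 ± 0.33 (0.109) and IAA27 at -0.82 ± 0.26 (0.0912). SAUR50 was at 0.44 ± 0.14 (0.0740), SAUR78 at 0.72 ± 0.26 (0.125) and IAA2 at 0.45 ± 0.21 (0.220). None of these 6 was called by limma over all 24 libraries or by edgeR, while DESeq2 called SAUR50, limma on only the ZT6 libraries called SAUR78, a pseudocount of 5 called SAUR20, and a replicate block called SAUR20 and IAA27. The lean was not particular to ZT6. At ZT18 the log2 fold change was negative for 40 of 56 genes (median -0.11) and for 25 of 32 SAUR genes (median -0.29), and on average over the 4 times it was negative for 40 of 56 (median -0.13). At ZT12 it was negative for 28 of 56 genes (median -0.004) and at ZT0 for 31 of 56 (median -0.04). The median of all genes tested was 0.004 at ZT18, -0.003 on average, 0.005 at ZT12 and 0.007 at ZT0. The share of all genes with a negative fold change is not given here, so these sign counts are not set against all genes. Members that are near-copies may share reads, so the counts are not of independent genes. The 2 root markers summed to 55.9 to 105 CPM in jaz4-1 and 178 to 259 CPM in Col-0 at ZT6. One of them, BGLU23, a beta-glucosidase of roots and hypocotyls, had 1308, 2378 and 2241 normalised reads in jaz4-1 and 4951, 5379 and 3246 in Col-0, and its part in the ZT6 differences was not tested.

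**Figure D4:**
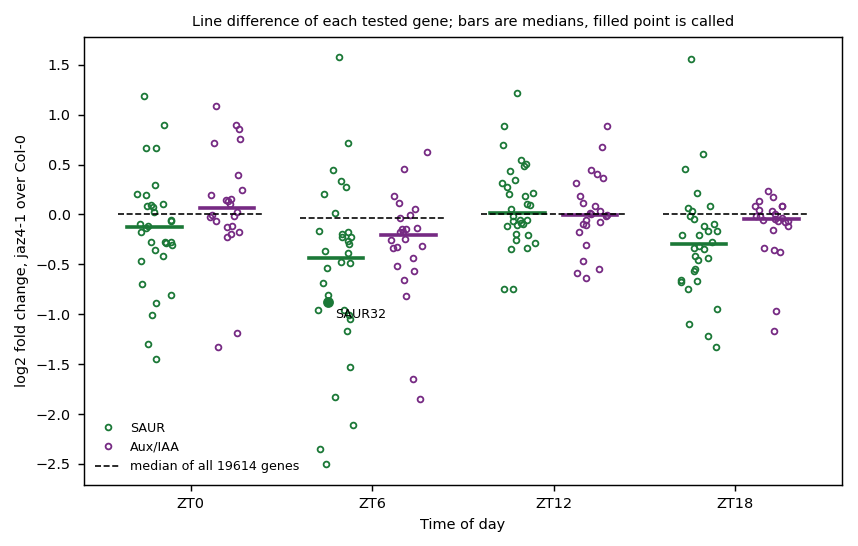
log2 fold change of jaz4-1 over Col-0 for each of the 56 tested genes at each time, SAUR genes in green and Aux/IAA genes in purple. Coloured bars are family medians, dashed lines the median of all 19614 genes tested, and the filled point is the 1 called gene, SAUR32. At ZT6 both family medians, -0.43 and -0.21, lie below that of all genes.

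SAUR78 (AT1G72430), a relative of SAUR76 known to interact with ethylene receptors, had the smallest adjusted p of the 56 genes for the average line difference. It had 1735, 1858 and 3366 normalised reads at dawn, 1761, 1778 and 1552 at midday, 694, 870 and 1130 at dusk and 1496, 1100 and 1788 at midnight in jaz4-1. In the wild type it had 1379, 2057 and 2060 at dawn, 958.5, 1119 and 984 at midday, 671, 811 and 704 at dusk and 1562, 966 and 757 at midnight. The lines were apart at ZT6 and overlapped at the other times. Its average difference was 0.44 ± 0.13 (limma adjusted p 0.0555).

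Other genes of the auxin pathway are given beside the 53.5% of all genes that were called over time in jaz4-1 and the 49.1% called in Col-0. Of 6 TIR1/AFB receptor genes, 4 were lower at ZT6 than at ZT0 in jaz4-1 and 3 in Col-0. In that step 21.4% of all genes were called lower in jaz4-1 and 19.7% in Col-0. TIR1 fell by 1.52 in jaz4-1 (limma adjusted p 1.53e-09) and fell by 1.45 in Col-0 (3.98e-09), and AFB2 fell by 1.28 in jaz4-1 and fell by 1.085 in Col-0. Of 15 ARF genes, 11 were called over time in jaz4-1 and 10 in Col-0. ARF6, an activator that promotes hypocotyl and flower growth, was lower at ZT0 than at ZT18, by -1.29 ± 0.17 in jaz4-1 and -1.11 ± 0.17 in Col-0. ARF10 went the other way in that step, by 1.01 ± 0.24 in jaz4-1 and 0.80 ± 0.24 in Col-0. Among 5 tested GH3 genes, which conjugate auxin to amino acids, GH3.17 was higher at ZT0 than at ZT18 by 1.57 ± 0.34 in jaz4-1 and 1.28 ± 0.34 in Col-0. GH3.5 was higher in that step in Col-0 (2.30 ± 0.58, limma adjusted p 0.00636) and was not called in jaz4-1. Over time GH3.17 was called in both lines, GH3.5 in Col-0 only and the other tested GH3 genes in neither.

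In auxin synthesis, 6 of 8 tested genes were called over time in jaz4-1 and 5 in Col-0, against 53.5% of all genes in jaz4-1 and 49.1% in Col-0. YUC5 rose by 3.47 ± 0.56 in jaz4-1 and 4.15 ± 0.56 in Col-0 between ZT0 and ZT6. Between the lines, YUC5 was higher in jaz4-1 on average (1.20 ± 0.28; limma adjusted p 0.0131) and TAA1, which makes the auxin precursor, was lower in jaz4-1 at ZT6 (-0.79 ± 0.21; 0.0460). Between the lines, 2.95% of all genes were called at ZT6 and 4.68% on average over the 4 times. The TAA1 call was near the threshold, and how it and the YUC5 call depend on single libraries is not given here. Of 11 tested transport genes, 3 were called over time in each line, PIN3, PIN4 and PIN7, a smaller share than over all genes. Between ZT0 and ZT6 PIN3 fell by 1.85 in jaz4-1 and fell by 1.62 in Col-0, while PIN7 rose by 1.025 ± 0.12 in jaz4-1 and 0.95 ± 0.12 in Col-0.

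Downstream of SAUR proteins, 8 of 9 PP2C.D phosphatase genes were called over time in each line, as were all 3 proton pump genes tested, against 53.5% of all genes in jaz4-1 and 49.1% in Col-0. At ZT6 against ZT0, 7 PP2C.D genes were called in jaz4-1, 2 higher and 5 lower, and 5 were called in Col-0, 2 higher and 3 lower. Of all genes, 42.5% were called in that step in jaz4-1 and 40.2% in Col-0. PP2C.D5 fell by 0.85 in jaz4-1 and fell by 0.86 in Col-0, and PP2C.D6 fell by 0.86 in jaz4-1 and fell by 0.72 in Col-0. PP2C.D8 rose by 2.16 ± 0.19 in jaz4-1 and 1.20 ± 0.19 in Col-0 between ZT0 and ZT6, and was higher in jaz4-1 than in Col-0 at ZT6 (1.22 ± 0.19; limma adjusted p 0.000712). The pump genes AHA1 and AHA2 fell between ZT0 and ZT6, by -1.07 ± 0.16 and -0.52 ± 0.17 in jaz4-1 and by -1.10 ± 0.16 and -0.54 ± 0.17 in Col-0. AHA3 was not called in that step in either line (-0.32 ± 0.20 in jaz4-1 and 0.43 ± 0.20 in Col-0). Of 11 genes of PIF and brassinosteroid growth factors, 10 were called over time in each line. PIF5 rose by 3.86 ± 0.16 in jaz4-1 and 4.10 ± 0.16 in Col-0 between ZT18 and ZT0. It was higher in jaz4-1 than in Col-0 at ZT6 (0.78 ± 0.15, limma adjusted p 0.00643). At ZT6, 2.95% of all genes were called between the lines. How the line calls of PP2C.D8 and PIF5 depend on single libraries is not given here.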

How the data were processed

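Total RNA of rosettes was sequenced as paired-end Illumina libraries made with the NEBNext Ultra kit, per the labels' protocols. Reads were handled with HISAT2 and featureCounts on TAIR10, per the submitters' processing notes, and settings and strand are not given there. The authors deposited 1 signal value per gene and library, headed RPKM, and for each time the log2 fold change between the lines with its p-value and adjusted p-value. In the deposited signal columns every value (100% within 0.001) was a whole read count divided by 1 factor per library, equal to a median-of-ratios factor within its time, so no length correction was present. Line comparisons used the deposited values. Time comparisons used the recovered reads rescaled by median-of-ratios over all 24 libraries. Per kilobase means divided by the exon length of the RefSeq TAIR10.1 annotation, which also gave names and sequences. The files hold no coordinates.

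Of 24503 genes, 19614 passed edgeR 4.0.16 filterByExpr (minimum count 10, minimum total 15). They were fitted as log2(value + 1) with 1 mean per line and time in limma 3.58.1 (trend and robust empirical Bayes, R 4.3.3), so a fold change of a gene with few reads is understated. P-values were adjusted by Benjamini-Hochberg over all genes tested and called under 0.05. Because the values were scaled, limma was the test used, and edgeR quasi-likelihood and DESeq2 1.42.0 on the recovered reads were alternatives. The steps were tested on simulated data with known changes. These changes were put only into genes with higher mean reads, so recovery of changes in genes with few reads was not covered. Depth was 16832226 to 22644745 reads per library, and errors are limma standard errors (SE) over 3 libraries a group. Replicates are separate pools of 6 rosettes per the labels. Any 2 libraries differed in the read count of at least 81.7% of genes.

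Replicates carry the same numbers in all groups. Of 12 pairs of groups compared, all 3 same-numbered correlations were over a cut of 0.1 in 1, jaz4-1 and Col-0 at ZT0. They were 0.157, 0.13 and 0.228, and 0 members were called there with and without a replicate block. Between the lines at ZT6 they were 0.056, 0.128 and 0.133, and at ZT0 and ZT6 alike each library correlated best with its own number. At ZT6 3 members were called with the block and 1 without it, and the limma adjusted p of SAUR32 was 0.00729 with it and 0.0359 without. The members and gene lists were chosen with earlier results of these data known. Genes named by rule were the called members with the smallest p between lines, the 5 with the largest change in each direction of each step at a mean of at least 1 CPM, the 8 with the smallest p over time in each line, and the 3 with the highest level per kilobase at each peak time, with every member of the SAUR19, SAUR63 and degron-free lists and up to 3 called genes of each other list. Further members are named after their values were seen, among them IAA6 and SAUR50. Other alternatives were pseudocounts of 0.5 and 5, no filter, TMM scaling, only the libraries compared, a replicate block and leaving out each library. Leaving out the 2 libraries with the fewest detected genes was added after seeing the data.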

Additional observations from a re-analysis of the deposited data

How the results depend on the processing

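The counts of called SAUR and Aux/IAA genes kept within 1.5 times of the values above, except as follows. For the line difference at ZT6 the count, 1 in limma, was 2 with a pseudocount of 5, with no filter, with only the libraries compared and in DESeq2, 3 with a replicate block (SAUR20, SAUR32 and IAA27) and 0 without the 2 libraries with the fewest detected genes, and it ranged between 0 and 3 when each library was left out. For the average line difference, 0 in limma, it was 3 with a replicate block (SAUR20, SAUR78 and IAA27), 1 in DESeq2 (SAUR78), 1 without the 2 libraries with the fewest detected genes (IAA14), and between 0 and 2 when each library was left out, with 2 without Col-0 ZT18 replicate 1. At ZT0 against ZT18 in Col-0 it was 16 with only the libraries compared, against 25. Leaving out each library gave 2 to 6 genes at ZT18 against ZT12 in jaz4-1, 3 to 10 in Col-0, and 6 to 17 at ZT12 against ZT6 in Col-0. With the replicate block, 40 genes were called over time in jaz4-1 and 36 in Col-0, and no other count moved by more than 1.5 times. Over all pairs of groups, same-numbered libraries had correlations of -0.276 to 0.327, and 15 of 36 correlated best with their own number. Of 71 single-gene results named by rule, 48 kept their call under every alternative, 23 lost it under at least 1 and 0 changed sign. Over all genes, the ZT6 line difference gave 578 calls in limma, 1154 in DESeq2, 1319 with the block and 241 without the 2 libraries with the fewest detected genes, and that at ZT0 gave 181 in limma, 364 in DESeq2, 275 with the block and 29 with only the libraries compared. The cause of these shifts was not tested. Genes of few reads, such as IAA6, IAA32 and SAUR22, are limited by depth, and the split of reads among the near-identical SAUR copies is uncertain.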
